A study of Mus musculus with 2 samples.

Results

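The 10 genes described here are known from inherited calcification of the brain, from the transport of phosphate, or from the turnover of extracellular pyrophosphate, a brake on mineral growth. They were taken by gene symbol, each matched 1 row of the count tables, and they are 10 of 32285 genes counted. They are the phosphate importers Slc20a1 and Slc20a2, the phosphate exporter Xpr1, the glycosidase-like Myorg, the junction protein Jam2, the growth factor Pdgfb and its receptor Pdgfrb, and the pyrophosphate genes Enpp1, Ank and Alpl. The data are single-cell RNA profiles of the thalamus of 2 untreated wildtype C57BL/6J mice, 2 months of age, with 1 library per mouse. Both mice belong to the same group, so no treatment or genotype was compared, and every comparison below is between cell classes found in both mice. Cells came from enzymatic dissociation and were profiled from the 3′ end of transcripts with unique molecular identifiers (UMIs), so a level here is the CPM of a gene, its UMIs over all UMIs of the cells of a class in 1 mouse, on the usual scale.

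Inorganic phosphate enters cells through sodium-coupled importers of the Slc20 family and leaves through Xpr1, and loss of SLC20A2 or XPR1 function in people leads to primary familial brain calcification, with deposits around small vessels of the basal ganglia, thalamus and cerebellum. Endothelial Pdgfb binds Pdgfrb on pericytes and holds these cells on the capillary wall, and MYORG and JAM2 are recessive genes of the same disease. Enpp1 cleaves extracellular ATP to pyrophosphate, Ank brings pyrophosphate or its precursor ATP to the cell surface, and the tissue-nonspecific alkaline phosphatase Alpl breaks pyrophosphate down to phosphate.

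Slc20a1, Xpr1 and Myorg had their highest level in the same class in both mice, the astrocyte-like cells, and the 250 bases before a start site of each are printed for that reason. They were taken from a table of RefSeq promoters (GRCm38.p6) in which 6 of the 10 genes were matched, and are written 5′ to 3′ on the strand of the gene. Capitals mark the GC box (GGGCGG or its reverse CCGCCC) and the half-site of nuclear factor I (TTGGC or its reverse GCCAA), searched on both strands, and no capitals of one motif overlapped the other.
Slc20a1, chr2:129198523-129198772, plus strand: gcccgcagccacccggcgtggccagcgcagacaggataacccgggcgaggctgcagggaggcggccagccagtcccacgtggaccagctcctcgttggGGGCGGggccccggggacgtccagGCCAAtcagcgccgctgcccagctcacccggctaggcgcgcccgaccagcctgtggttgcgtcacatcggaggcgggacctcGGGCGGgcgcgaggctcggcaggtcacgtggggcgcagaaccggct
Xpr1, chr1:155417445-155417694, minus strand: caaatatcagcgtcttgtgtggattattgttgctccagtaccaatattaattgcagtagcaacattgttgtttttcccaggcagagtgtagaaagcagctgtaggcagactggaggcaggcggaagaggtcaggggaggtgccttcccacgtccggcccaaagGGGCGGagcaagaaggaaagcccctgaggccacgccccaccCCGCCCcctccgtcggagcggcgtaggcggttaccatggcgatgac
Myorg, chr4:41503076-41503325, minus strand: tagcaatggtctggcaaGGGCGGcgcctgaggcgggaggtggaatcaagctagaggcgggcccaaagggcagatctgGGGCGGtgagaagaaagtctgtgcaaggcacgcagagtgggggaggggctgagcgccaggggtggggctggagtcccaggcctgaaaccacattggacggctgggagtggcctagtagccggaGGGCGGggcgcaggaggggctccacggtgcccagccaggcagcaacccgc
The printed windows of Slc20a1 and Xpr1 each held 2 GC boxes and that of Myorg held 3. The table has another Slc20a1 start site (chr2:129206846-129207095), whose window held 1 GC box and 0 half-sites. Of 32851 promoters of the same length in that table, 32.7% held at least 1 GC box. The nuclear factor I half-site occurred once in the printed Slc20a1 window and in neither of the Xpr1 and Myorg windows, against 41.5% of all promoters. These matches describe the letters of the windows only.

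After quality filters and removal of called doublets, 6185 cells of mouse 1 and 9176 cells of mouse 2 remained, with a median of 17998 and 14759 UMIs. Clustering left out 66 genes, the 10 described here and the related lists below, and gave 34 clusters, from which 14 classes were named by marker genes, each with 20 or more cells per mouse. The names end in "-like" because no outside reference was used. The mice contributed unequal parts: microglia-like cells of mouse 1 came mainly from 1 cluster (745 and 8 cells in mouse 1 and mouse 2) and those of mouse 2 from another led by Ccl3, Ccl4 and Tnf (77 and 489 cells). Glutamatergic neuron-like cells numbered 210 in mouse 1 and 1606 in mouse 2. Their Kcnip4-led cluster had 70 and 728 cells, the Necab1-led 25 and 596 and the Tnnt1-led 115 and 282. Between the libraries, 36 barcodes were shared, 15 of them among kept cells. A cluster of 197 and 166 cells that mixed endothelial and pericyte markers stayed out of every class. Levels are compared between classes for 1 gene and never between genes, because 3′ capture differs between transcripts. On the opposite strand, Ank overlaps Otulin, Slc20a2 overlaps Smim19, Pdgfb overlaps Gm41361 and Slc20a1 overlaps 9830144P21Rik. Whether the counting used strand is not stated in the labels. Slc20a2 also overlaps Gm17491 on its own strand.

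**Figure D1:**
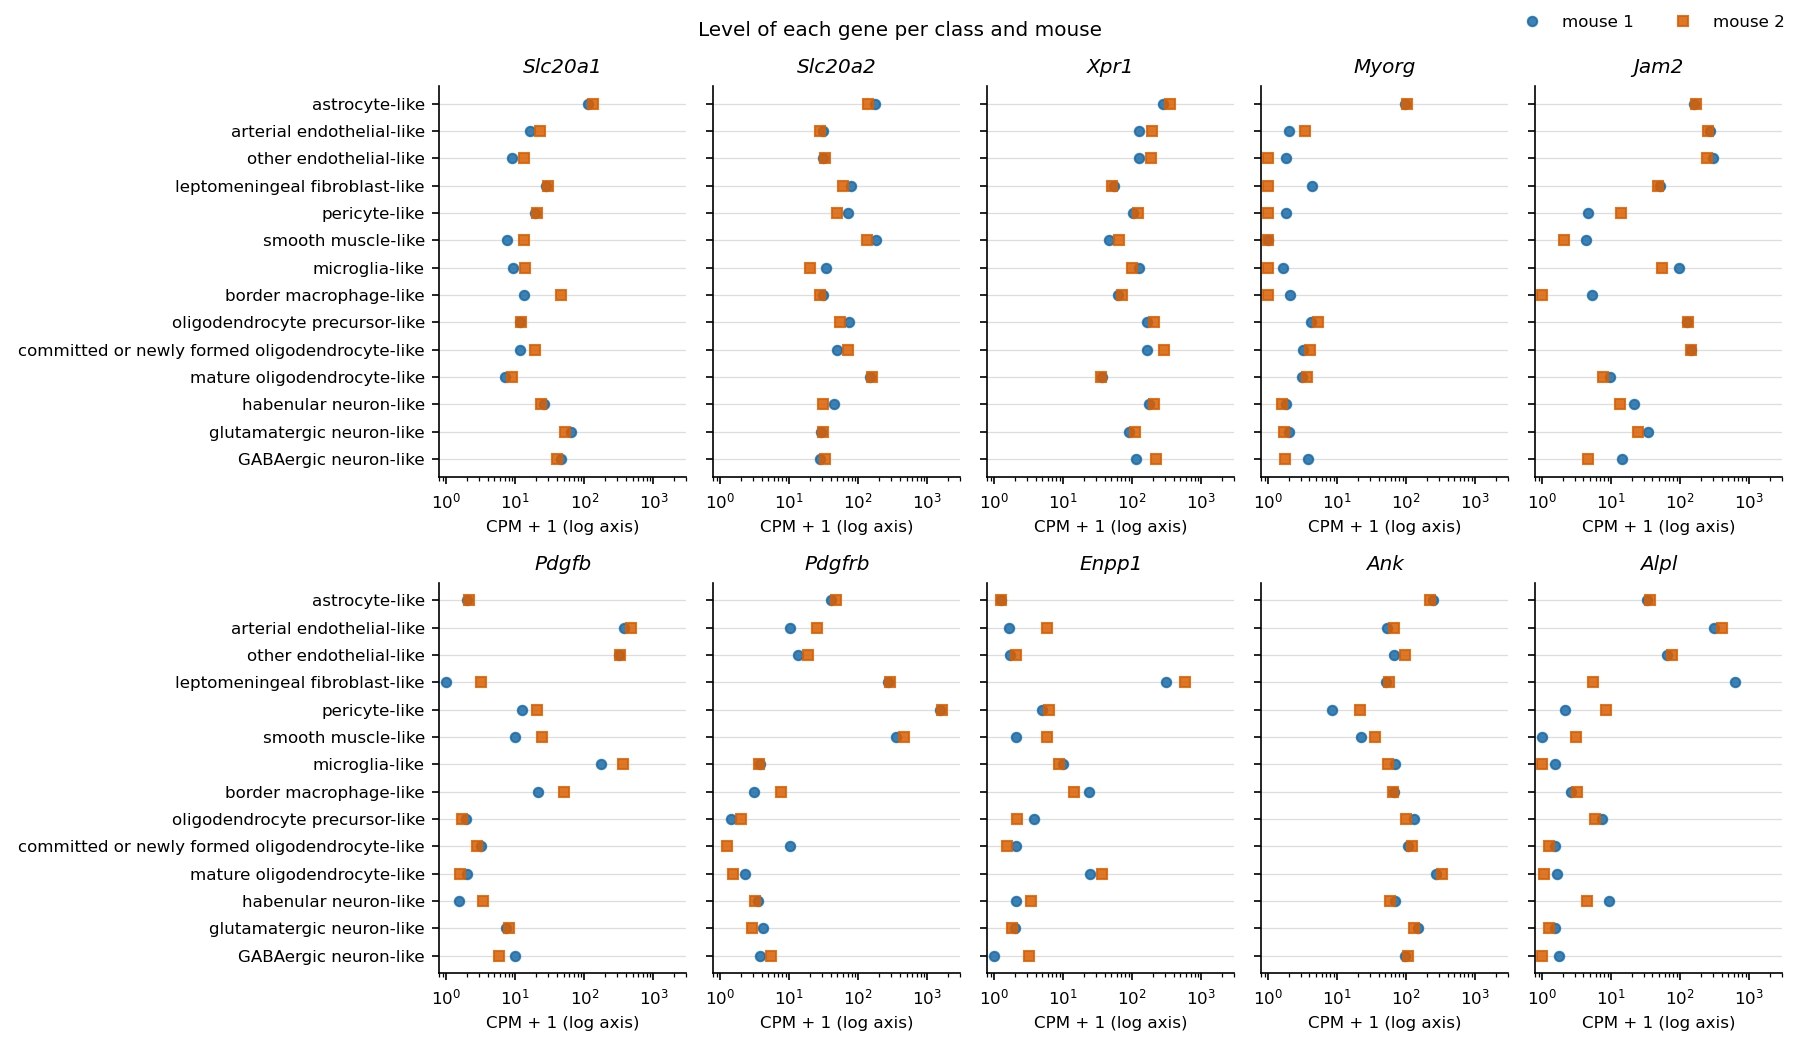
Each panel plots 1 gene, with the level in CPM plus 1 on a log axis and 1 row per class; circles are mouse 1 and squares are mouse 2. Myorg sat near 100 CPM in astrocyte-like cells and below 5 CPM in the other classes shown, and Pdgfrb was highest in pericyte-like cells. Alpl of fibroblast-like cells stood at 629 CPM in mouse 1 and 4.49 CPM in mouse 2.

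The phosphate importer Slc20a1 (chr2:129198764-129211616, plus strand, GRCm38 as all gene coordinates here) had 113 CPM in mouse 1 and 131 CPM in mouse 2 in astrocyte-like cells. Glutamatergic neuron-like cells followed with 62.3 and 51.1 CPM, and the ranges of these classes did not overlap. The lowest mean was that of mature oligodendrocyte-like cells, at 6.20 and 7.83 CPM. Over the 14 classes ordered by mean level, 4 of 13 neighbouring pairs had ranges that did not overlap.

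The importer Slc20a2 (chr8:22476788-22569612, plus strand), the most often mutated gene of familial brain calcification in people, was high in 3 unlike classes. It had 182 and 134 CPM in smooth muscle-like cells, 173 and 138 CPM in astrocyte-like cells, and 146 and 160 CPM in mature oligodendrocyte-like cells, ranges that overlapped. Fibroblast-like, precursor-like, committed or newly formed and pericyte-like cells lay between, and pericyte-like cells had 70.2 and 47.8 CPM. Neuron-like, endothelial-like and macrophage-like cells were lowest, with microglia-like cells at 33.4 and 18.9 CPM.

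The exporter Xpr1 (chr1:155275701-155417415, minus strand) had the flattest profile of the 10 genes by the ratio of its highest class mean to its median class mean, which was 2.36. Astrocyte-like cells had 276 and 355 CPM, and committed or newly formed oligodendrocyte-like cells came next with 165 and 288 CPM, a range that overlapped. Mature oligodendrocyte-like cells were the lowest class, with 35.9 and 35.0 CPM. For the importer Slc20a2 these cells were thus among its 3 highest classes, and for the exporter the last. The other importer, Slc20a1, also had its lowest class mean there, at 6.20 and 7.83 CPM.

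Myorg (chr4:41495604-41503076, minus strand), an endoplasmic reticulum protein of the glycosidase family, was counted mostly in astrocyte-like cells, at 96.8 and 104 CPM. Precursor-like cells, the next class, had 3.25 and 4.26 CPM, with no overlap. In smooth muscle-like cells no Myorg UMI was counted in either mouse, which allows levels of up to 3.31 and 1.64 CPM by counting error alone. At least 1 Myorg UMI was found in 68.7% and 60.8% of astrocyte-like cells (median 14470 and 8952 UMIs per cell), against 5% and 6.33% of precursor-like cells (13500 and 14880 UMIs). With cells of 2000 or more UMIs thinned to 2000 and the others left out, the shares were 16.6% and 21.1% in astrocyte-like cells. In precursor-like cells they were 0.714% and 0.528%.

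Jam2 (chr16:84774123-84825928, plus strand), a junctional adhesion molecule, was shared between endothelium and glia. Its level was 274 and 252 CPM in arterial endothelial-like cells and 296 and 248 CPM in other endothelial-like cells, ranges that overlapped. Astrocyte-like cells had 160 and 169 CPM, and the early oligodendrocyte classes had 143 and 144 CPM (committed or newly formed) and 126 and 128 CPM (precursor-like). Smooth muscle-like cells had 3.31 and 1.09 CPM, and border macrophage-like cells 4.30 and 0 CPM.

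The ligand Pdgfb (chr15:79995874-80014977, minus strand) was high in 3 classes. Arterial endothelial-like cells had 370 and 470 CPM, other endothelial-like cells 312 and 330 CPM, and microglia-like cells 174 and 362 CPM. The first of these did not overlap with the second, and the second overlapped with microglia-like cells. Border macrophage-like cells followed at 20.4 and 49.1 CPM.

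The receptor Pdgfrb (chromosome 18) had the opposite distribution in the vessel wall. Pericyte-like cells had 1527 and 1620 CPM, smooth muscle-like cells 349 and 453 CPM, and fibroblast-like cells 272 and 289 CPM, with no overlap between these 3 classes. Astrocyte-like cells came next, at 39.0 and 46.6 CPM, above endothelial-like cells. The 8 pericyte markers summed to 90.8 and 117 CPM in astrocyte-like cells and to 30440 and 25420 CPM in pericyte-like cells. If all of those marker UMIs in astrocyte-like cells had come with Pdgfrb in the ratio of pericyte-like cells, Pdgfrb would have been 4.56 and 7.46 CPM, below the measured level in each mouse. The same ratio would give 236 and 338 CPM in smooth muscle-like cells and 201 and 202 CPM in fibroblast-like cells, where more was measured in each mouse. In endothelial-like cells it would give more than was measured, 70.1 and 212 CPM in arterial cells, where 9.13 and 24.5 CPM were measured, and 48.3 and 88.1 CPM in other endothelial-like cells, where 12.4 and 17.6 CPM were. Such figures can thus miss the measured level several-fold, and the part of carried-over RNA in any level given here was not tested.

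Enpp1 (chr10:24637914-24712159, minus strand), the enzyme that makes extracellular pyrophosphate, was highest in leptomeningeal fibroblast-like cells at 310 and 588 CPM. Mature oligodendrocyte-like cells came second with 23.8 and 36.0 CPM, border macrophage-like cells after them with 22.6 and 13.4 CPM, and then microglia-like cells with 8.86 and 7.89 CPM. None of these neighbours overlapped. Astrocyte-like cells had 0.257 and 0.281 CPM, the lowest of the 14 classes.

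Ank (chr15:27466677-27594909, plus strand), the transporter that supplies pyrophosphate outside the cell, was highest in mature oligodendrocyte-like cells at 275 and 331 CPM. Astrocyte-like cells had 243 and 222 CPM and glutamatergic neuron-like cells 146 and 128 CPM, and these 3 classes did not overlap. Pericyte-like cells were the lowest class, with 7.62 and 20.5 CPM.

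Alpl (chr4:137741733-137796384, minus strand), the phosphatase that removes pyrophosphate, had 314 and 407 CPM in arterial endothelial-like cells and 64.8 and 75.4 CPM in other endothelial-like cells. Astrocyte-like cells had 32.7 and 35.9 CPM. Fibroblast-like cells had 629 CPM in mouse 1 and 4.49 CPM in mouse 2, a gap that is taken up with their single cells.

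Endothelial-like cells (arterial and other, averaged with equal weight) were first set against mural-like cells (pericyte-like and smooth muscle-like, likewise), the ligand and receptor sides of the vessel wall. Tests were edgeR's quasi-likelihood tests, with p adjusted by Benjamini-Hochberg over all genes of the fit. A call needs an adjusted p under 0.05 and a log2 change of 1 or more in size. The SE of a log2 fold change is not an output of this test. It was derived as the size of the fold change divided by the square root of the F statistic. Calls were made for 8 of the 10 genes, 5 higher and 3 lower, where 24.3% of 16595 genes were called (12.1% higher and 12.2% lower). Pdgfb averaged 341 and 401 CPM in endothelial-like cells and 10.2 and 21.6 CPM in mural-like cells, a log2 fold change of 4.61 ± 0.34 (SE; adjusted p = 6.21e-10). Pdgfrb averaged 10.8 and 21.1 CPM in endothelial-like cells and 939 and 1038 CPM in mural-like cells, a log2 fold change of -5.79 ± 0.43 (adjusted p = 9.66e-10). The ligand was thus on the endothelial side and the receptor on the mural side in each mouse, without overlap.

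Jam2 was higher in endothelial-like cells by 6.22 ± 0.38 (log2, adjusted p = 4.52e-11) and Alpl by 6.19 ± 0.84 (adjusted p = 4.06e-06). Alpl averaged 189 and 241 CPM in endothelial-like and 0.603 and 4.89 CPM in mural-like cells, where 17 UMIs were counted in all. Ank was higher by 1.90 ± 0.22 (adjusted p = 6.43e-07), at 59.8 and 81.1 CPM in endothelial-like cells and 14.3 and 27.5 CPM in mural-like cells. The importer Slc20a2 and the exporter Xpr1 went opposite ways, and the importer Slc20a1 was not called. Slc20a2 had 30.02 and 29.6 CPM in endothelial-like and 126 and 91.1 CPM in mural-like cells (log2 -1.62 ± 0.20, adjusted p = 8.92e-07). Xpr1 had 125 and 190 CPM in endothelial-like and 74.3 and 92.0 CPM in mural-like cells (log2 1.05 ± 0.17, adjusted p = 5.15e-05), and the ranges of these classes did not overlap. Enpp1 was lower in endothelial-like cells (log2 -1.74 ± 0.65, adjusted p = 0.0455), from 11 UMIs in endothelial-like and 27 in mural-like cells. That Enpp1 call was lost with doublets kept (log2 -1.40) and with a mitochondrial limit of 5% (log2 -1.21), and Xpr1 lay just under the fold limit with 4 of the alternatives, at log2 0.96 to 0.99.

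Arterial endothelial-like cells were then set against other endothelial-like cells, which include the sub-cluster with venous markers. No member passed the call, where 1.01% of all genes were called (0.771% higher and 0.235% lower). By unadjusted p below 0.05, 2 of the 10 genes passed with edgeR and 2 with DESeq2, and DESeq2 also called 0. These were Alpl and Slc20a1 in edgeR. The share of all genes below that unadjusted limit was not taken, so this count of members has no background beside it. Alpl had a log2 fold change of 2.38 ± 0.78 (adjusted p = 0.262), with log2 ratios of 2.27 in mouse 1 and 2.44 in mouse 2 and levels that did not overlap.

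The Alpl result depended on which classes shared the estimate of spread. Fibroblast-like cells, whose Alpl differed between the mice, were part of the same fit. With that class left out, an alternative added after seeing the data, Alpl was called with a log2 fold change of 2.27 and an adjusted p of 0.0224. Slc20a1 had 15.6 and 22.1 CPM in arterial and 8.01 and 12.3 CPM in other endothelial-like cells, a log2 fold change of 0.90 ± 0.42 (adjusted p = 0.669). Pdgfb, Jam2, Xpr1 and Slc20a2 differed by log2 0.37 ± 0.38, -0.04 ± 0.35, 0.03 ± 0.24 and -0.11 ± 0.29 (arterial over other).

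**Figure D2:**
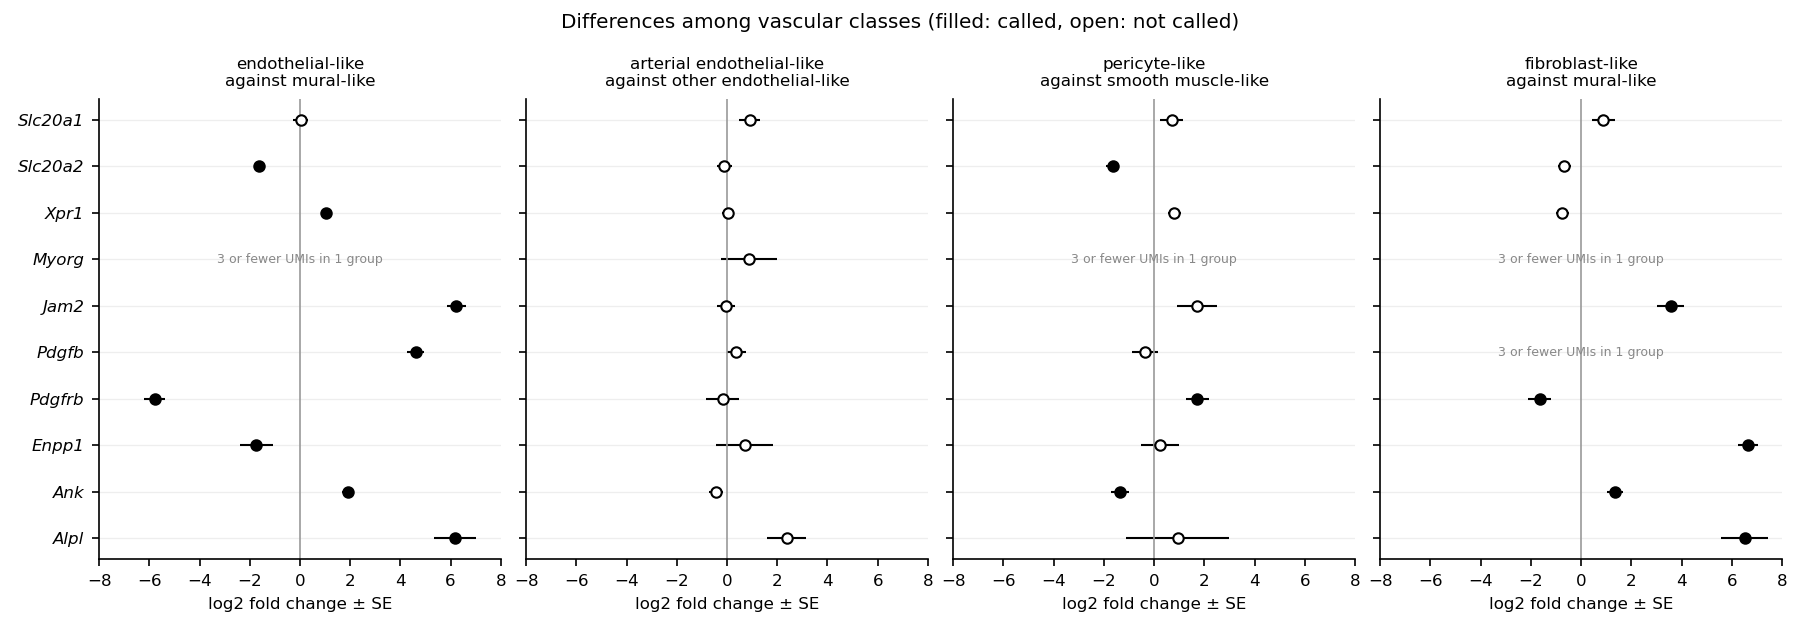
Log2 fold changes of the 10 genes for 4 comparisons of vascular classes, first-named class over second, with the SE derived from edgeR's F statistic. Filled points were called and open points were not. Genes with 3 or fewer UMIs in 1 group are left without a point. Jam2, Pdgfb and Alpl lay far to the endothelial side of the first panel, Pdgfrb far to the mural side, and no gene of the second panel was called.

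Within the endothelial-like cells, Alpl had 314 and 407 CPM in the arterial sub-cluster and 17.9 and 17.7 CPM in the sub-cluster with venous markers such as Vcam1 and Ackr1. It had 175 and 166 CPM in a sub-cluster led by Olfm5, Egr1 and Fos and 65.5 and 62.0 CPM in a sub-cluster led by Ppbp and St18. None of these 4 sub-clusters overlapped with another, and their differences were not tested. The sub-clusters led by Olfm5 and by Ppbp were not named. In both, the capillary list scored highest of the arterial, capillary and venous lists, but 0 capillary markers passed 2-fold. No capillary marker past that limit thus places them between the arterial and the venous end. The remaining sub-cluster, with 45 and 51 cells, was led by the mural genes Vtn and Myl9 and had 5 pericyte markers among its top 10 genes. It was kept out of the named classes, and had 66.4 and 107 CPM of Alpl. Pdgfb had 370 and 470 CPM in the arterial sub-cluster and 293 and 311 CPM in the one with venous markers. Jam2 ranged from 242 to 309 CPM over the same sub-clusters, and the ranges of the sub-clusters overlapped. The 8 pericyte markers summed to 1398 and 3334 CPM in arterial and 963 and 1383 CPM in other endothelial-like cells, and their part in the values was not tested.

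**Figure D3:**
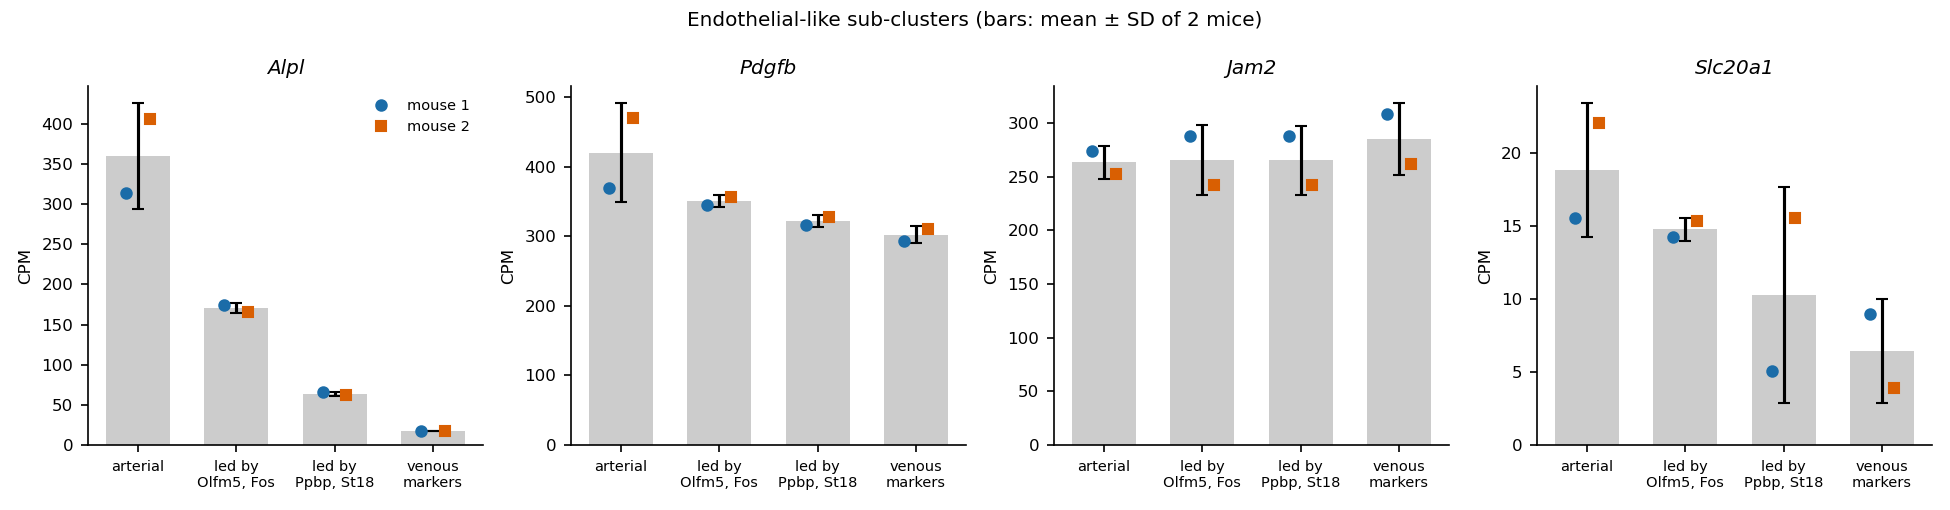
Levels in CPM of Alpl, Pdgfb, Jam2 and Slc20a1 in the 4 endothelial-like sub-clusters other than the one led by mural genes; bars are means with the SD of the 2 mice, circles are mouse 1 and squares mouse 2. Alpl had 314 and 407 CPM in the arterial sub-cluster and 17.9 and 17.7 CPM in the sub-cluster with venous markers, whereas Jam2 ranged from 242 to 309 CPM.

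Pericyte-like cells were compared with smooth muscle-like cells to keep the mural classes apart. Calls were made for 3 of the 10 genes, 1 higher and 2 lower, where 11.2% of all genes were called (5% higher and 6.23% lower). Pdgfrb was higher in pericyte-like cells, at 1527 and 1620 CPM against 349 and 453 CPM in smooth muscle-like cells (log2 1.73 ± 0.48, adjusted p = 0.0189). Slc20a2 was lower in pericyte-like cells, at 70.2 and 47.8 CPM against 182 and 134 CPM in smooth muscle-like cells (log2 -1.64 ± 0.26, adjusted p = 0.000139). Ank was lower as well, at 7.62 and 20.5 CPM against 21.0 and 34.4 CPM in smooth muscle-like cells (log2 -1.36 ± 0.34, adjusted p = 0.0103). The smooth muscle-like Ank level came from 19 and 63 UMIs, of which 68.4% and 63.5% lay in 5 cells of each mouse. In pericyte-like cells these shares were 31.6% and 40.7% of 19 and 27 UMIs. Levels of Pdgfrb, Slc20a2 and Ank did not overlap between these classes.

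Xpr1 had 103 and 120 CPM in pericyte-like and 45.2 and 63.8 CPM in smooth muscle-like cells, a log2 fold change of 0.80 ± 0.25 (adjusted p = 0.0371) under the fold limit. Pdgfb, Enpp1, Slc20a1 and Alpl were low on both sides and were not called. Markers of mature oligodendrocytes summed to 691 and 1644 CPM in pericyte-like cells and 2531 and 2185 CPM in smooth muscle-like cells. Carried over in the ratio of mature oligodendrocyte-like cells, that would give 5.44 and 10.8 CPM of Ank in pericyte-like and 19.9 and 14.35 CPM in smooth muscle-like cells, where 21.0 and 34.4 CPM were measured. It would give 10.6 and 6.92 CPM of Slc20a2 in smooth muscle-like cells, where 182 and 134 CPM were measured, and the part of these markers in the calls was not tested. A mitochondrial limit of 5%, which left 3 smooth muscle-like cells in mouse 1 and 59 in mouse 2, ended all 3 calls. The Ank call was also lost with doublets kept (log2 -0.69, adjusted p = 0.0799), and Pdgfrb lost its call with DESeq2 (adjusted p = 0.093), with no filter on low counts (adjusted p = 0.0928) and without the mouse as a block (adjusted p = 0.0585).

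Leptomeningeal fibroblast-like cells were compared with mural-like cells because both coat vessels. Calls were made for 6 of the 10 genes, 4 higher and 2 lower, where 13% of all genes were called (7.62% higher and 5.42% lower). Enpp1 separated the classes most, with 310 and 588 CPM in fibroblast-like cells and a mean of 2.56 and 5.12 CPM in mural-like cells (log2 6.65 ± 0.41, adjusted p = 6.12e-10). Jam2 was higher by 3.57 ± 0.54 (adjusted p = 5.63e-05) and Ank by 1.33 ± 0.32 (adjusted p = 0.00558), and Pdgfrb was lower, with 272 and 289 CPM in fibroblast-like cells and 939 and 1038 CPM in mural-like cells (log2 -1.65 ± 0.45, adjusted p = 0.0149). Pdgfb was called lower from 1 UMI in fibroblast-like cells, so no fold is given, and its call was lost with doublets kept (adjusted p = 0.197) among others. The Pdgfrb call was lost with DESeq2 (adjusted p = 0.0578) and with no filter on low counts (adjusted p = 0.0837), and that of Ank with doublets kept (log2 0.71, adjusted p = 0.0501).

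The call for Alpl, log2 6.52 ± 0.94 (adjusted p = 3.26e-05), rested on mouse 1. There Alpl had 629 CPM in fibroblast-like and a mean of 0.603 CPM in mural-like cells, and in mouse 2 it had 4.49 CPM in fibroblast-like and 4.89 CPM in mural-like cells. In mouse 1 all 185 Alpl UMIs lay in 5 of 21 cells, with 12 to 67 UMIs each, and the other 16 cells had none. These 5 cells held 1 Enpp1 UMI together and no UMI of the fibroblast marker Slc6a13. The other 16 cells held 90 Enpp1 and 233 Slc6a13 UMIs. The fibroblast markers Col1a1 and Dcn were present in all 5 cells, with 83 and 367 UMIs and at least 7 and 11 per cell. In the other 16 cells they had 209 and 972 UMIs. The median depth was 24980 UMIs in the 5 cells and 11622 in the 16. In mouse 2, 2 Alpl UMIs were found in 1 of 48 cells. In mouse 1, cells with Alpl and cells with Enpp1 were thus mostly different cells of the class, and 1 cell had UMIs of both. In mouse 2 the 1 cell with Alpl also had 6 Enpp1 UMIs, so the split was seen in mouse 1 only.

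**Figure D4:**
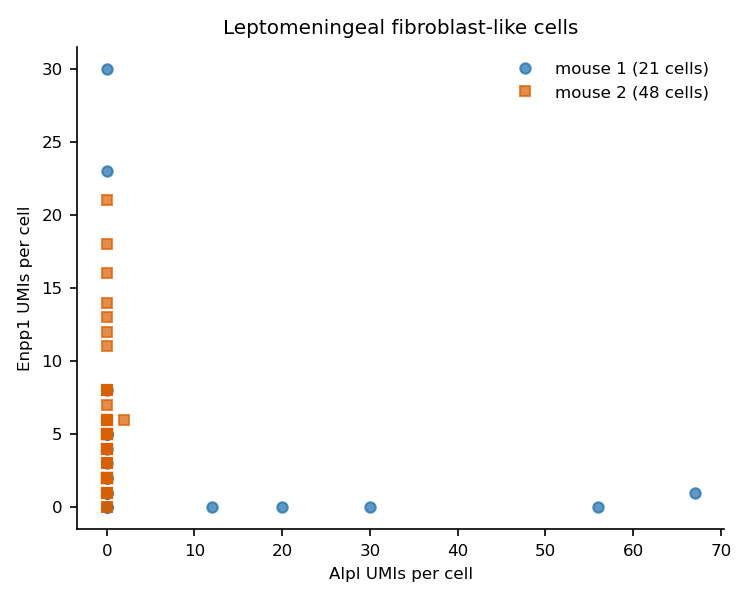
Each point is 1 leptomeningeal fibroblast-like cell, with its Alpl UMIs on the horizontal and its Enpp1 UMIs on the vertical axis; circles are the 21 cells of mouse 1 and squares the 48 cells of mouse 2. The 5 cells of mouse 1 with 12 to 67 Alpl UMIs lie along the bottom, with at most 1 Enpp1 UMI, and every other cell has 0 to 2 Alpl UMIs.

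Astrocyte-like cells were compared with the mean log level of the other 13 classes, each given equal weight. All 10 genes were called, 8 higher and 2 lower, where 34.6% of all genes were called (20.9% higher and 13.7% lower). Myorg had the largest difference of the 10, with 96.8 and 104 CPM in astrocyte-like cells and a mean over the other classes of 1.55 and 1.12 CPM (log2 7.01 ± 0.25, adjusted p = 4.69e-15). Slc20a1 was higher by 2.88 ± 0.18 (adjusted p = 1.93e-11), Slc20a2 by 1.77 ± 0.15 (adjusted p = 2.75e-09) and Xpr1 by 1.63 ± 0.14 (adjusted p = 5.32e-09), so both importers and the exporter were on the astrocyte side together. Ank was higher by 1.80 ± 0.16 (adjusted p = 7.09e-09) and Jam2 by 2.64 ± 0.22 (adjusted p = 1.54e-09).

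Enpp1 was lower in astrocyte-like cells (log2 -3.64 ± 0.63, adjusted p = 5.86e-05) from 5 UMIs, and Pdgfb was lower (log2 -3.13 ± 0.61, adjusted p = 0.000193) from 20 UMIs. The Enpp1 call was lost with doublets kept (log2 -0.79) and the Pdgfb call at a mitochondrial limit of 5% (log2 -2.99). Pdgfrb (log2 2.08 ± 0.32, adjusted p = 1.19e-05) and Alpl (log2 3.38 ± 0.54, adjusted p = 2.25e-05) were called higher on this scale of equally weighted log levels, although their plain mean CPM over the other classes, 169 and 187 for Pdgfrb and 79.3 and 39.1 for Alpl, was higher than the level in astrocyte-like cells. For Alpl, endothelial markers carried over in the arterial ratio would give 0.795 and 0.703 CPM in astrocyte-like cells, where 32.7 and 35.9 CPM were measured. Of the 2 astrocyte-like clusters, the one with Cldn10 and Aqp4 among its leading genes had 119 and 111 CPM of Myorg and the one led by Gli2 had 81.3 and 75.9 CPM.

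Microglia-like cells were set against the other 13 classes in the same way. Calls were made for 5 of the 10 genes, 3 higher and 2 lower, where 35.8% of all genes were called (19.9% higher and 15.9% lower). Pdgfb was higher by 5.43 ± 0.21 (log2, adjusted p = 5.62e-15), Enpp1 by 1.66 ± 0.32 (adjusted p = 0.000153) and Jam2 by 1.51 ± 0.24 (adjusted p = 1.66e-05). As these are equally weighted log levels, the plain means can differ: Enpp1 had 8.86 and 7.89 CPM in microglia-like cells and a mean of 28.4 and 50.9 CPM over the other classes, and Jam2 had 96.4 and 53.5 CPM in microglia-like cells and a mean of 87.7 and 80.8 CPM over the others. Pdgfrb was lower (log2 -2.05 ± 0.50, adjusted p = 0.00173), as was Alpl (log2 -3.77 ± 1.29, adjusted p = 0.0183), which had 6 UMIs in microglia-like cells. With doublets kept, the calls of Pdgfrb and Alpl were lost and 3 of the 10 genes were called.

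Against border macrophage-like cells, the other resident macrophages, 2 of the 10 genes were called in microglia-like cells, both higher, where 13.6% of all genes were called (7.29% higher and 6.31% lower). Pdgfb had 174 and 362 CPM in microglia-like cells and 20.4 and 49.1 CPM in border macrophage-like cells (log2 3.28 ± 0.46, adjusted p = 2.49e-05). Jam2 had 96.4 and 53.5 CPM in microglia-like cells and 4.30 and 0 CPM in border macrophage-like cells (log2 4.72 ± 0.58, adjusted p = 5.34e-06). Neither gene overlapped between the classes in these mice. Endothelial markers summed to 88.2 and 46.9 CPM in microglia-like cells, and their carry-over in endothelial ratios would give 1.57 and 1.08 CPM of Pdgfb and 1.17 and 0.529 CPM of Jam2. Within each mouse Pdgfb was higher in the cluster led by Ccl3, Ccl4 and Tnf, at 263 and 364 CPM, than in the other microglia-like cluster, at 164 and 240 CPM, the last value from 8 cells. This difference was not tested. With the fibroblast-like class left out of the fit, Xpr1 was also called (log2 1.03, adjusted p = 0.00585), against log2 0.94 ± 0.25 with it.

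Along the oligodendrocyte lineage, Xpr1 and Jam2 were high early and Enpp1, Ank and Slc20a2 late. Enpp1 had 2.79 and 1.15 CPM in precursor-like cells, 1.11 and 0.524 CPM in committed or newly formed cells and 23.8 and 36.0 CPM in mature cells. Xpr1 had 164 and 203 CPM, 165 and 288 CPM, and 35.9 and 35.0 CPM in the same order of stages, and Jam2 had 126 and 128 CPM, 143 and 144 CPM, and 8.79 and 6.72 CPM. For these 3 genes the committed or newly formed cells were nearer to the precursors than to the mature cells in each mouse.

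Mature oligodendrocyte-like against precursor-like cells gave calls for 6 of the 10 genes, 3 higher and 3 lower, where 36.5% of all genes were called (14.3% higher and 22.2% lower). Enpp1 was higher by 4.74 ± 0.53 (log2, adjusted p = 2.2e-07), with log2 ratios of 3.48 in mouse 1 and 5.14 in mouse 2. Ank was higher by 1.78 ± 0.27 (adjusted p = 1.04e-05) and Slc20a2 by 1.67 ± 0.25 (adjusted p = 8.86e-06), at 146 and 160 CPM in mature and 72.9 and 53.3 CPM in precursor-like cells. Jam2 was lower in mature cells (log2 -3.70 ± 0.38, adjusted p = 7.34e-08), as were Xpr1 (log2 -1.99 ± 0.24, adjusted p = 5.22e-07) and Alpl (log2 -3.74 ± 0.99, adjusted p = 0.00371). Alpl stood at 0.657 and 0.0777 CPM in mature and 6.5 and 4.93 CPM in precursor-like cells, a low level on both sides. All 6 calls held under each alternative with a test.

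**Figure D5:**
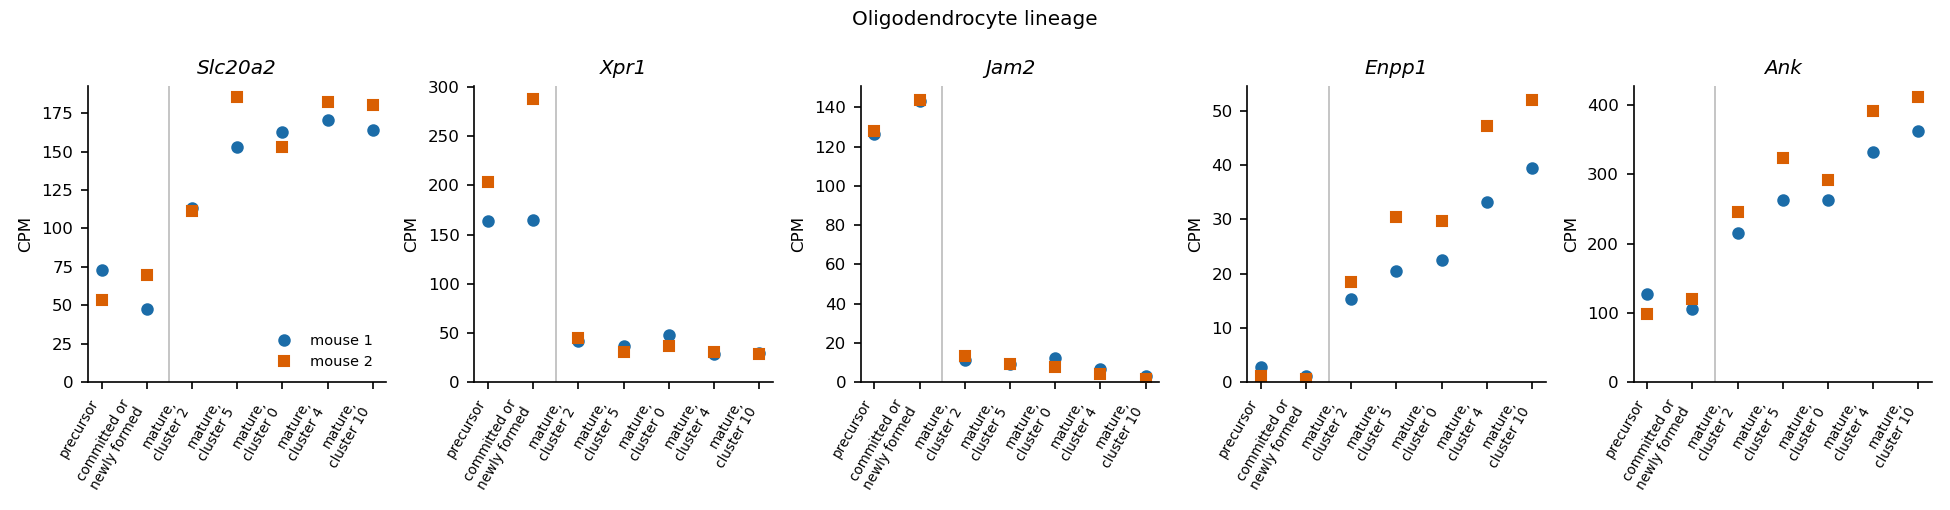
Levels in CPM of 5 genes in precursor-like cells, committed or newly formed cells and, right of the grey line, the 5 mature clusters in order of rising mean Enpp1; circles are mouse 1 and squares mouse 2. Enpp1 and Ank were lowest of the mature clusters in cluster 2 and highest in cluster 10, whereas Jam2 and Xpr1 dropped at the grey line.

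Among the 5 mature oligodendrocyte-like clusters, each set against the other 4 in a fit that left out Alpl for low counts, Jam2 was the 1 member that passed the call. It was lower in the Klk6-led cluster, numbered 10, at 3.06 and 1.86 CPM against a mean of 10.0 and 8.59 CPM in the others (log2 -1.89 ± 0.25, adjusted p = 3.07e-06), where 8.23% of 13774 genes were called. It was higher in cluster 2, with Ptgds, Kit and Mal among its leading genes, at 11.3 and 13.1 CPM against 7.97 and 5.77 CPM (log2 1.13 ± 0.17, adjusted p = 3.76e-05), where 4.52% were called. In mouse 1 alone that ratio was 0.73, under the fold limit.

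Enpp1 and Ank took the same order over these clusters without reaching the fold limit. Enpp1 was 39.4 and 52.0 CPM in the Klk6-led cluster (log2 0.79 ± 0.08, adjusted p = 5.11e-08), 33.2 and 47.2 CPM in the cluster led by Anln and Hapln2 (0.58 ± 0.07, adjusted p = 1.83e-05) and 15.2 and 18.5 CPM in cluster 2 (-0.90 ± 0.09, adjusted p = 6.67e-08). Ank was 363 and 412 CPM, 332 and 391 CPM, and 215 and 245 CPM in the same clusters. The cluster with Opalin and Il33 among its leading genes, numbered 0, had 20 cells in mouse 1 and 1554 in mouse 2. In clusters 0, 4 and 5, where 0.791%, 0.878% and 0.668% of genes were called, no member was called by edgeR or DESeq2. There, 3, 4 and 3 of the 9 members tested had an unadjusted p below 0.05 with edgeR. With DESeq2 these counts were 1, 4 and 2, and the share of all genes below that limit was not taken.

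Glutamatergic neuron-like against GABAergic neuron-like cells gave 1 call, where 12.6% of all genes were called (7.89% higher and 4.71% lower). Jam2 was higher, at 33.1 and 23.4 CPM in glutamatergic and 13.7 and 3.71 CPM in GABAergic neuron-like cells (log2 2.07 ± 0.42, adjusted p = 0.00145). Xpr1 had 88.3 and 108 CPM in glutamatergic and 114.5 and 220 CPM in GABAergic neuron-like cells and was not called (log2 -0.40 ± 0.23).

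Habenular neuron-like against glutamatergic neuron-like cells gave calls for 4 of the 10 genes, 1 higher and 3 lower, where 21.2% of all genes were called (8.65% higher and 12.6% lower). Alpl was higher in habenular neuron-like cells, at 8.47 and 3.57 CPM against 0.577 and 0.276 CPM (log2 3.64 ± 0.99, adjusted p = 0.00835). Slc20a1 was lower, at 25.01 and 22.3 CPM against 62.3 and 51.1 CPM in glutamatergic neuron-like cells (log2 -1.43 ± 0.31, adjusted p = 0.00149). Ank was lower by a log2 fold change of -1.29 ± 0.26 (adjusted p = 0.000725) and Pdgfb by -2.27 ± 0.50 (adjusted p = 0.00147). Pdgfb was low on both sides, at 0.538 and 2.45 CPM against 6.24 and 7.04 CPM in glutamatergic neuron-like cells. Its habenular level came from 4 and 24 UMIs, and in mouse 2 91.7% of these lay in 5 cells. None of these 4 genes overlapped between the classes.

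The habenular Alpl rested on 63 UMIs in 31 of 143 cells of mouse 1 and 35 UMIs in 25 of 348 cells of mouse 2. Endothelial markers summed to 49.1 and 19.5 CPM there, and in the arterial ratio they would bring 0.742 and 0.388 CPM of Alpl. With no filter on low counts its adjusted p was 0.0523.

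The 9 clusters of neurons were each set against the other 8, in a fit of 15278 genes that left out Myorg for low counts. Some rested on few cells of mouse 1: the Pth2-led cluster on 21, the Necab1-led on 25 and the Unc5d-led on 28. The 2 habenular clusters both had higher Alpl, the Tac2-led cluster with 7.56 and 3.43 CPM (log2 2.87 ± 0.57, adjusted p = 0.000659, where 26.0% of genes were called) and the Nwd2-led cluster with 10.6 and 4.17 CPM (log2 3.48 ± 0.66, adjusted p = 0.000349, where 37.7% were called). The Nwd2-led cluster also had the highest Xpr1 of the 9 in both mice, 224.5 and 274 CPM (log2 1.10 ± 0.15, adjusted p = 1.43e-05). Among the glutamatergic neuron-like clusters, Jam2 was higher in the Kcnip4-led cluster, at 38.6 and 28.9 CPM (log2 1.66 ± 0.25, adjusted p = 5.58e-05, where 31.3% were called), and in the Tnnt1-led cluster, at 33.0 and 35.7 CPM (log2 1.42 ± 0.24, adjusted p = 0.000325, where 18.8% were called).

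In a cluster with Cbln1 and Cbln4 among its leading genes, Jam2 was lower, at 6.59 and 8.22 CPM (log2 -1.23 ± 0.35, adjusted p = 0.0112, where 19.9% were called). The same cluster had the highest Pdgfrb of the 9 in both mice, 9.22 and 9.91 CPM against a mean of 2.03 and 2.61 CPM in the other clusters (log2 2.19 ± 0.34, adjusted p = 0.000102), from 97 UMIs. The cluster with Cbln1 and Cbln4 is part of the unresolved neuron-like cells. Of their 71 and 99 Pdgfrb UMIs, 54.9% and 30.3% lay in 5 cells of each mouse. Whether carried-over pericyte RNA had a part in that Pdgfrb level was not tested. Ank was higher in the Kcnip4-led cluster, at 168 and 158 CPM (log2 1.05 ± 0.12, adjusted p = 3.99e-06). Further calls of Pdgfb and Pdgfrb were at levels below 10 CPM, in the Kcnip4-led, Nwd2-led and Necab1-led clusters, the last with 17.7% of genes called. Jam2 was lower in the GABAergic cluster (log2 -1.12 ± 0.38, adjusted p = 0.0382, where 14.5% were called), a call that was lost without the mouse as a block (adjusted p = 0.098). In the Pth2-led cluster, where 13.5% of genes were called, and the Unc5d-led cluster, where 31.7% were, no member was called by edgeR or DESeq2. At an unadjusted p below 0.05, 2 and 2 of the 9 members tested passed with edgeR there, and 3 and 2 with DESeq2. Here too the share of all genes below that limit was not taken.

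Related genes were read from 5 lists of the same pathways, and some of their genes were below the filter on low counts. Over all tested genes, 12.1% were called higher and 12.2% lower in endothelial-like against mural-like cells, and 7.62% higher and 5.42% lower in fibroblast-like against mural-like cells. In pericyte-like against smooth muscle-like cells 5% were called higher and 6.23% lower, and in astrocyte-like cells against the other classes 20.9% higher and 13.7% lower. Fold changes are differences of equally weighted log levels of the classes, so they can differ from ratios of the printed means. Of the 13 genes of extracellular nucleotide and pyrophosphate turnover, 12 were tested. In endothelial-like against mural-like cells 3 were called higher, with a list median of log2 0.43 against -0.0044 over all genes, and Entpd1, which strips phosphates from ATP, averaged 210 ± 22.4 CPM in endothelial-like and 118 ± 13.8 CPM in mural-like cells (SD, n = 2; log2 2.82 ± 0.34, adjusted p = 9.07e-07). The mural mean joins a low pericyte-like level with a smooth muscle-like level as high as that of endothelial-like cells. In pericyte-like against smooth muscle-like cells the 1 call of that list was Entpd1, at 3.91 ± 0.155 CPM in pericyte-like and 232 ± 27.4 CPM in smooth muscle-like cells (log2 -6.18 ± 0.56, adjusted p = 1.62e-07). In astrocyte-like cells Entpd2, another of these enzymes, averaged 56.0 ± 0.492 CPM against 2.66 ± 0.454 CPM in the other classes (log2 7.49 ± 0.29, adjusted p = 5.06e-14), 1 of 2 genes called higher there among the 12, with 2 lower.

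Of the 9 genes of phosphate transport and its hormones, 5 were tested. Pth1r, the receptor of parathyroid hormone, was 1 of 2 called lower in endothelial-like cells, at 6.34 ± 1.38 CPM against 244 ± 1.37 CPM in mural-like cells (log2 -4.998 ± 0.24, adjusted p = 2.68e-12). It was also the 1 gene of the list called higher in pericyte-like cells, at 394 ± 10.9 CPM against 93.6 ± 13.7 CPM in smooth muscle-like cells (log2 1.82 ± 0.26, adjusted p = 4.02e-05). In fibroblast-like cells 2 of the list were called higher and 1 lower: Kl, the co-receptor of Fgf23, had 107 ± 16.7 CPM and no UMI in mural-like cells, and Fgfr1 had 424 ± 122 CPM against 94.4 ± 9.75 CPM in mural-like cells (log2 2.13 ± 0.25, adjusted p = 2.32e-06).

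Of 14 modulators of mineral deposition, 10 were tested. In fibroblast-like against mural-like cells, where 7.62% of all genes were called higher, 5 were called higher and 0 lower, with a list median of log2 1.90 against -0.11 over all genes. Spp1 (osteopontin) averaged 2739 ± 1133 CPM in fibroblast-like and 7.28 ± 4.05 CPM in mural-like cells (log2 10.11 ± 0.99, adjusted p = 3.81e-07), and Bmp6 509.5 ± 83.7 CPM and 12.6 ± 2.97 CPM (log2 6.94 ± 0.52, adjusted p = 6.58e-09). In arterial against other endothelial-like cells the 1 gene called was Mgp, an inhibitor of vascular calcification, at 473 ± 34.5 CPM in arterial and 19.5 ± 4.06 CPM in other endothelial-like cells (log2 4.68 ± 0.51, adjusted p = 2.16e-05). Endothelial-like cells as a whole had 4 of the list lower than mural-like cells and 0 higher, among them Mgp, at 246 ± 19.3 CPM against 838 ± 140 CPM (log2 -3.00 ± 0.33, adjusted p = 2.7e-07).

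Of 16 other genes of intracranial calcification, 15 were tested, and 7 were called higher and 1 lower in endothelial-like against mural-like cells, where 12.1% of all genes were called higher and 12.2% lower. Ocln, a tight junction protein, averaged 331 ± 59.5 CPM in endothelial-like and 7.46 ± 3.59 CPM in mural-like cells (log2 5.90 ± 0.42, adjusted p = 4.9e-10), and Jam3, a relative of Jam2, 14.7 ± 1.41 CPM and 186 ± 9.28 CPM (log2 -3.64 ± 0.32, adjusted p = 8.41e-09). Jam2 and Jam3 were thus called in opposite directions between endothelial-like and mural-like cells, and also between mature and precursor-like oligodendrocytes, where Jam3 was higher in mature cells, at 290 ± 0.422 CPM against 122 ± 1.02 CPM (log2 1.63 ± 0.37, adjusted p = 0.00109). Of the 4 other genes of the PDGF family, 3 were called lower in pericyte-like than in smooth muscle-like cells, where 6.23% of all genes were, and Pdgfa averaged 75.5 ± 21.0 CPM against 312 ± 73.8 CPM (log2 -2.29 ± 0.42, adjusted p = 0.000637).

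The genes whose level ran most like that of a member over the 28 class-by-mouse sums were taken by Pearson's r of log2(CPM + 1), which is a description, since the sums of 1 mouse share a library. Pdgfrb ran with Sod3 (r = 0.98), Rarres2 (0.97) and Adora2a (0.97), whose highest class was also the pericyte-like cells. Myorg ran with Gm6145 (0.93), Slc6a11 (0.93) and Aldh1l1 (0.91), all highest in astrocyte-like cells. Pdgfb ran with Gimap6 (0.92), Mfng (0.91) and Arap3 (0.91), and Enpp1 with Tgfbi (0.88), Apod (0.85) and Abca8a (0.84), all 3 highest in fibroblast-like cells. Jam2 ran with Fut8 (0.85), Mark3 (0.81) and Xpnpep1 (0.81), and Slc20a2 with Tst (0.84), Dmpk (0.83) and Csrp1 (0.81). Slc20a1 ran with Gm1604a (0.83), Rmst (0.83) and Acvr1c (0.79), Alpl with Rai14 (0.83), Cyp2d22 (0.83) and Fmo1 (0.82), Ank with Gnptab (0.80), Gca (0.79) and Tecpr2 (0.78), and Xpr1 with Afg1l (0.79), Rasa2 (0.78) and Kdm4c (0.75).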

How the data were processed

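Single-cell libraries of the thalamus of 2 wildtype mice were analysed, 1 library per mouse. The authors deposited raw UMI counts per gene and barcode, and the submitters' processing notes name Cell Ranger 7.1.0, Seurat 5 and the mm10 build. The labels state neither the annotation version nor how introns and strand were treated. The libraries held 163418203 and 204839993 UMIs in 7889 and 12107 barcodes, and every barcode had at least 500 UMIs. Intervals and floors (3 counts) cover counting error only.

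Cells had to have 500 genes and 1000 UMIs or more, with mitochondrial UMIs up to 15%, and Scrublet removed 181 and 262 called doublets. Clustering used scanpy 1.11.5 with leidenalg 0.10.2 (2000 variable genes, 30 components, 15 neighbours, resolution 1). Endothelial-like cells were clustered again after centring each mouse, a choice made after seeing that they otherwise split by mouse. The members, markers and lists were chosen with earlier results of these data known.

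Counts were summed per class and mouse and tested with edgeR 4.0.16 (R 4.3.3), quasi-likelihood with TMM scaling and Benjamini-Hochberg adjustment, with class and mouse as terms, in 3 fits: 14 classes (28 sums, 16595 genes), 5 mature oligodendrocyte clusters and 9 neuron clusters. The block for the mouse follows from the design, since all sums of 1 mouse come from 1 animal, and deviations of class pairs within a mouse correlated at a median of 0.242 (91 pairs, 89 above 0.1). Log2 ratios within 1 mouse use TMM-scaled CPM with a prior count of 1 and so differ from ratios of the printed CPM. The mouse term takes up each gene's average difference between the 2 libraries. The p-values thus measure how far differences between classes vary from mouse to mouse. That spread is pooled over all classes or clusters of a fit and shared in part across genes. With 2 mice it does not describe mice at large. The code of the test was run on simulated counts for pericyte-like against smooth muscle-like cells only. That simulation had a common dispersion, no shared mouse effect and changes only in genes above a minimum level. It therefore does not bear on calls from low counts. Named genes were all 10 members, the 3 most alike genes of each, and, from the lists, called genes with the largest fold change, at least 50 CPM and the same direction in each mouse. Gene coordinates come from GENCODE vM21, which held 32158 of 32285 identifiers. DESeq2 1.42.0, other scaling, filters, cell limits, doublets, blocking and each mouse left out were tried as alternatives.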

Additional observations from a re-analysis of the deposited data

How the results depend on the processing

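Of 61 calls of a member in a comparison, 41 held under every alternative with a test that applied to them. There were 8 such alternatives, and the one without the fibroblast-like class applied to 39 of the calls. Of the 466 values these gave, 422 kept direction and call, 44 kept direction without the call, and 0 reversed. The calls in pericyte-like against smooth muscle-like cells went to 0 with a mitochondrial limit of 5%, in microglia-like cells against the other classes to 3 with doublets kept, and in arterial against other endothelial-like cells to 1 with the fibroblast-like class left out, an alternative chosen after seeing the data. Leaving out 1 mouse leaves no residual degrees of freedom, so it gives ratios with no test, of which 10 and 17 moved by more than the spread and 0 reversed. Of the 2 calls in mature oligodendrocyte clusters, 1 to 2 kept a ratio past the fold limit. Without the replicate block, pericyte-like against smooth muscle-like cells gave 2 calls, fibroblast-like against mural-like cells 5 and the neuron clusters 11, and the other counts did not move.

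Over all genes, the calls in pericyte-like against smooth muscle-like cells numbered 607 with the 5% limit and 1864 as reported, and in arterial against other endothelial-like cells 100 without the block and 167 as reported. In mature cluster 0 they were 109 as reported, 209 with DESeq2, 304 with no filter and 11 without the block. Clusters 4 and 5 gave 42 and 19 without the block, against 121 and 92 as reported, and cluster 5 gave 157 with no filter. With DESeq2 size factors, 993 of 1928 calls in glutamatergic against GABAergic neuron-like cells were higher, against 1309 of 2090, and in the Nwd2-led cluster 2848 of 5817, against 2109 of 5759. With no filter 4807 of 6691 calls in astrocyte-like cells were higher, against 3466 of 5742. DESeq2 size factors shifted the median of all genes by -0.17 in mature against precursor-like oligodendrocytes. Depth limits the low genes, such as Alpl, Enpp1 and Myorg in mural-like cells.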

Other observations

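A cluster led by Ttr, Sostdc1 and Kcnj13, with 116 cells in mouse 1 and 31 in mouse 2, had the 4 listed choroid plexus markers high and entered no class or comparison. Its cells had a median of 1431 UMIs. The 8 markers of mature oligodendrocytes summed to 18360 and 32730 CPM there, against 34900 and 50380 CPM in mature oligodendrocyte-like cells, with 0 of the 8 markers at 0, and their part in the following levels was not tested. Ank had 148 and 317 CPM there, Slc20a2 106 and 112 CPM and Enpp1 20.9 and 35.7 CPM, from 99 and 62, 71 and 22, and 14 and 7 UMIs. Xpr1 had 59.6 and 20.4 CPM, and Myorg 8.94 and 25.5 CPM from 6 and 5 UMIs. In the cluster that mixed endothelial and pericyte markers, Pdgfb had 248 and 181 CPM, Pdgfrb 424 and 810 CPM and Alpl 91.3 and 93.5 CPM.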
